A study of Mus musculus with 10 samples.

Results

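The RAS-ERK output and feedback genes described here are Dusp4, Dusp6, Spry2, Spry4, Spred1, Etv4, Etv5, Phlda1, Fosl1 and Egr1. They were listed by name and found by GENCODE mouse symbol, and all 10 were present among the 55401 gene identifiers counted and among the 17464 genes tested. RNA was sequenced from 10 subcutaneous flank tumors grown from KPN1.1, a mouse lung adenocarcinoma line that carries Trp53 fl/fl and the NINJA neoantigen allele. The hosts were male C57BL/6J mice with diet-induced obesity (DIO), aged 7 to 17 weeks at injection, and tumors were taken between days 19 and 22. Treatment began once tumors were palpable, and 5 of the sequenced tumors were from mice given liraglutide, a glucagon-like peptide-1 receptor agonist, at 0.2 μg/g body weight daily by the intraperitoneal route, and 5 from mice given the PBS vehicle. The alleles of the line and the obesity were shared by both groups, a single line was used, and each sample was a tumor fragment that held host cells beside tumor cells.

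RAS-ERK signaling passes from receptors through RAS, RAF and MEK to the kinases ERK1 and ERK2, which act on transcription factors in the nucleus. Among the genes that ERK activity induces are its own brakes. DUSP4 and DUSP6 are phosphatases that remove the activating phosphates from ERK, the Sprouty proteins SPRY2 and SPRY4 and the related SPRED1 restrain signaling upstream of ERK, and ETV4 and ETV5 are ETS transcription factors of the PEA3 family. FOSL1 is an AP-1 subunit, EGR1 is an immediate early zinc finger factor, and PHLDA1 is a pleckstrin homology-like protein induced by growth factors. The mRNA levels of such genes are often read as a measure of ERK pathway activity.

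Capicua is a repressor whose binding to an octamer in the promoters of several such genes is relieved by ERK, so the promoter windows were searched for it. RefSeq promoter windows on GRCm38.p6, from 250 bases before to 50 bases after the annotated start, were matched for 4 of the 10 genes, Dusp6, Spry2, Spred1 and Etv5. The octamer was searched on both strands as TGAATGAA, TGAATGGA, TCAATGAA and TCAATGGA, and its matches are in capitals. The windows of Dusp6 (chr10:99262981-99263280, plus strand) and Spry2 (chr14:105896770-105897069, minus strand) are shown because they held a match. That of Etv5 (chr16:22439521-22439820, minus strand) is shown as an example of a window without one.
Dusp6: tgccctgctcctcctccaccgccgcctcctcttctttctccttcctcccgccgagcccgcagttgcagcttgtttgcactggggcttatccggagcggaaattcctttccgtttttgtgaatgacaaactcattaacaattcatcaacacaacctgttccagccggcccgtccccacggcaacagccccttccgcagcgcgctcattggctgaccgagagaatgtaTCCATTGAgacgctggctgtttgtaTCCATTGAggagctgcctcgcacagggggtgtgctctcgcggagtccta
Spry2: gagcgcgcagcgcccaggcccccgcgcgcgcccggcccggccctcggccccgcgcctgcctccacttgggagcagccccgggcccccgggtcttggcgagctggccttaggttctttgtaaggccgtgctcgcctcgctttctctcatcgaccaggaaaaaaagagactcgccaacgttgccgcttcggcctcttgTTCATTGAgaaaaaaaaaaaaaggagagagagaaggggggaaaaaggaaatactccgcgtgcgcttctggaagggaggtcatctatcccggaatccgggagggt
Etv5: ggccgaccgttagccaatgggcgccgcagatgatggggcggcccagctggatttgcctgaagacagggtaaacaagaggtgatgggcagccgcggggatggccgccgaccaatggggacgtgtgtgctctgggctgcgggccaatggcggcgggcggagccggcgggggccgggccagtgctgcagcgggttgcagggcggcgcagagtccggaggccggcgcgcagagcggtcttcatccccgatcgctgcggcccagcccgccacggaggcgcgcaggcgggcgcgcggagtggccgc
The Dusp6 window held 2 matches, which began 24 bases before and 1 base after the start, and the Spry2 window held 1, which began 54 bases before it. The Spred1 window and a further Etv5 window held none. Of 32851 promoter windows of the same length, 3.84% held the octamer. None of the 5 member windows held the ETS motif (CCGGAAGT, CCGGAAGC, ACGGAAGT or ACGGAAGC, in 7.69% of all windows), the AP-1 motif TGANTCA (7.81%), the cyclic AMP response element TGACGTCA (1.79%), the EGR motif GCGTGGGCG (0.612%) or the serum response element (1.63%). These are matches of letters, and binding was not measured. No relation between the matches and the levels of the genes was tested.

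Total counts per tumor lay between 9927942 and 14480593, so that 3 counts, taken as the floor, corresponded to 0.207 to 0.314 CPM (counts scaled to the library size after TMM normalization), which covers counting error alone. The 10 genes stood well above this floor, with 70 to 168 counts per tumor for Fosl1, the lowest, and 2119 to 3434 for Dusp6. Keratins Krt8 and Krt18 marked the tumors as epithelial, at 1631 to 3294 and 1039 to 1999 CPM, whereas Epcam (0.163 to 4.63 CPM), Sftpc and Cldn4 were low, Cldn4 being at 0 in 4 tumors and Sftpc in 1. Summed marker levels of the groups overlapped for leukocytes (293.9 to 550.8 CPM in vehicle and 336.2 to 644.4 in liraglutide tumors), fibroblasts (1998 to 4447 and 2665 to 4425), endothelium (109.1 to 174.3 and 110.7 to 139.2), skeletal muscle (44.01 to 281.5 and 93.39 to 374.3), adipocytes (15.34 to 87.57 and 19.43 to 51.1), tumor epithelium (4761 to 10200.0 and 4987 to 7394), proliferation (928.7 to 1950.0 and 1102 to 1847), keratinocytes (9.464 to 22.57 and 7.516 to 227.3) and erythroid cells (26.94 to 74.13 and 15.56 to 33.52). At unadjusted p under 0.05, 5 of 6 tested keratinocyte markers were higher and 4 of 5 erythroid markers lower in liraglutide tumors. No listed marker was at 0 in all 10 tumors.

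None of the 10 genes passed the test for a difference between liraglutide and vehicle tumors after adjustment over all genes tested. A gene was called where its adjusted p was under 0.05 with a log2 fold change beyond 0.58 in size. The quasi-likelihood test of edgeR called 0 of 10, beside 0% of all 17464 genes tested. DESeq2 called 0 of the 9 to which it gave an adjusted p (Fosl1 had none), beside 0.181% of all genes with one. At an unadjusted p under 0.05 there was 1 of 10, Dusp6, beside 9.59% of all genes, a share near that background. No gene of the 10 had tumor ranges without overlap between the groups, beside 1.49% of all genes.

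**Figure D1:**
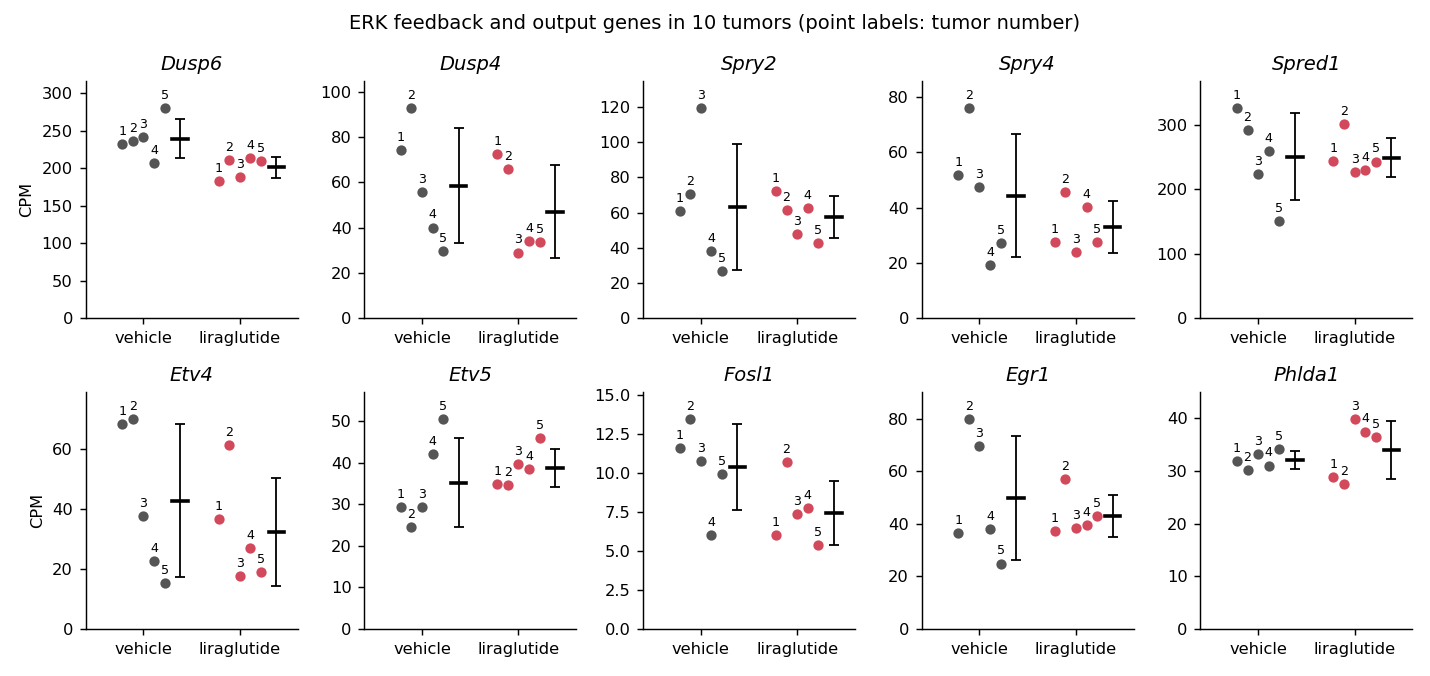
CPM (y axis, from 0) of the 10 genes in vehicle (gray) and liraglutide (red) tumors, each point 1 tumor labelled with its number, and the black line and whiskers the group mean and SD (n = 5 per group). The groups overlap for every gene, Dusp6 and Phlda1 vary little between tumors, and Etv4, Dusp4, Spry2 and Spry4 vary severalfold within a group.

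Both ERK phosphatases were measured at good depth. Dusp6, the cytoplasmic ERK phosphatase, was at 232, 236, 241, 207 and 279.7 CPM in vehicle tumors 1 to 5 and at 183, 210.2, 188, 213 and 209 CPM in liraglutide tumors 1 to 5. Of the vehicle tumors 4 lay above all liraglutide tumors, and vehicle tumor 4 lay within the liraglutide range. The means were 239 ± 26.2 and 201 ± 13.99 CPM (SD, n = 5 each), and the log2 fold change was -0.25 (SE 0.098, 95% interval -0.47 to -0.036), with an unadjusted p of 0.0263 and an adjusted p of 0.499 in edgeR. Without vehicle tumor 4 the ranges no longer overlapped, and over fits without 1 tumor the log2 fold change lay between -0.29 and -0.18, with adjusted p between 0.216 and 0.90.

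Dusp4, the nuclear phosphatase, was at 74.3, 92.8, 55.6, 40.1 and 29.8 CPM in vehicle tumors 1 to 5 and at 72.5, 66.0, 29.0, 34.3 and 33.8 CPM in liraglutide tumors 1 to 5. Each group held both high tumors (1 and 2) and low tumors (4 and 5), so the groups covered much the same range. The means were 58.5 ± 25.5 and 47.1 ± 20.4 CPM, and the log2 fold change of -0.31 (SE 0.35, 95% interval -1.07 to 0.45) had an adjusted p of 0.768 in edgeR. Per kilobase, the Dusp4 to Dusp6 ratio lay between 0.126 in vehicle tumor 5 and 0.467 in liraglutide tumor 1.

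The upstream inhibitors differed little between the groups relative to their spread. Spry2 was at 60.8, 70.5, 119, 38.1 and 27.0 CPM in vehicle tumors 1 to 5 and at 72.0, 61.7, 47.8, 62.6 and 42.9 CPM in liraglutide tumors 1 to 5. The liraglutide tumors all lay inside the vehicle range, which was set by tumor 3 at the top and tumor 5 at the bottom. The log2 fold change was -0.14 (SE 0.34, 95% interval -0.88 to 0.61), with an adjusted p of 0.904 in edgeR, and it was 0.23 without vehicle tumor 3.

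Spry4 was at 51.7, 75.9, 47.5, 19.4 and 27.0 CPM in vehicle tumors 1 to 5 and at 27.6, 45.6, 23.96, 40.1 and 27.7 CPM in liraglutide tumors 1 to 5. Its 3 highest values were in vehicle tumors and its lowest was too. The means were 44.3 ± 22.3 and 33.0 ± 9.33 CPM, and the log2 fold change was -0.42 (SE 0.33, 95% interval -1.16 to 0.31), with an adjusted p of 0.679 in edgeR. An antisense RNA, 9630014M24Rik, overlaps Spry4 and had up to 160 counts, and the strand setting of the counting is not given in the sources used here, so reads of the pair may not be told apart.

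Spred1, which recruits the RAS GTPase-activating protein neurofibromin, was at 326, 293, 224, 259.6 and 152 CPM in vehicle tumors 1 to 5 and at 243, 302, 227, 231 and 243 CPM in liraglutide tumors 1 to 5. Its group means, 251 ± 67.2 and 249 ± 30.4 CPM, were the closest of the 10 genes. The log2 fold change was -0.0088 (SE 0.18, 95% interval -0.41 to 0.39), with an adjusted p of 0.991 in edgeR, an interval that leaves room for a difference of either sign.

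The PEA3 factors Etv4 and Etv5 ran in opposite directions from tumor to tumor. Etv4 was at 68.5, 70.1, 37.7, 22.5 and 15.2 CPM in vehicle tumors 1 to 5 and at 36.8, 61.4, 17.7, 27.0 and 18.8 CPM in liraglutide tumors 1 to 5. Etv5 was at 29.4, 24.6, 29.4, 42.2 and 50.6 CPM in vehicle tumors 1 to 5 and at 34.8, 34.8, 39.7, 38.4 and 46.1 CPM in liraglutide tumors 1 to 5. Vehicle tumor 2 had the highest Etv4 and the lowest Etv5, and vehicle tumor 5 the lowest Etv4 and the highest Etv5. The Etv4 to Etv5 ratio per kilobase was 5.52, 6.73, 3.03, 1.26 and 0.713 in vehicle tumors 1 to 5 and 2.50, 4.18, 1.06, 1.66 and 0.967 in liraglutide tumors 1 to 5, a 9.44-fold range. By treatment, Etv4 had a log2 fold change of -0.40 (SE 0.46, 95% interval -1.41 to 0.61, adjusted p of 0.774 in edgeR) and Etv5 of 0.14 (SE 0.19, 95% interval -0.28 to 0.55, adjusted p of 0.817 in edgeR).

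Fosl1 had the lowest counts of the 10 genes. It was at 11.6, 13.5, 10.8, 6.02 and 9.94 CPM in vehicle tumors 1 to 5 and at 6.05, 10.7, 7.35, 7.75 and 5.36 CPM in liraglutide tumors 1 to 5. The low values were 4 of the 5 liraglutide tumors and vehicle tumor 4. The means were 10.4 ± 2.76 and 7.44 ± 2.06 CPM, and the log2 fold change was -0.48 (SE 0.24, 95% interval -1.01 to 0.054), with an unadjusted p of 0.0739 and an adjusted p of 0.558 in edgeR. Ccdc85b overlaps Fosl1 on the other strand and had up to 453 counts, more than Fosl1 itself, so Fosl1 is uncertain without the strand setting.

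Egr1 was at 36.5, 80.0, 69.8, 38.1 and 24.9 CPM in vehicle tumors 1 to 5 and at 37.2, 57.0, 38.4, 39.8 and 43.0 CPM in liraglutide tumors 1 to 5. Vehicle tumors 2 and 3 stood above all others, and the log2 fold change was -0.21 (SE 0.29, 95% interval -0.84 to 0.43, adjusted p of 0.816 in edgeR). Phlda1 was at 31.8, 30.1, 33.3, 31.0 and 34.1 CPM in vehicle tumors 1 to 5 and at 28.9, 27.5, 39.9, 37.5 and 36.5 CPM in liraglutide tumors 1 to 5. The liraglutide tumors lay on both sides of the narrow vehicle range, 2 below and 3 above it. The log2 fold change of Phlda1 was 0.086 (SE 0.12, 95% interval -0.18 to 0.35, adjusted p of 0.821 in edgeR).

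**Figure D2:**
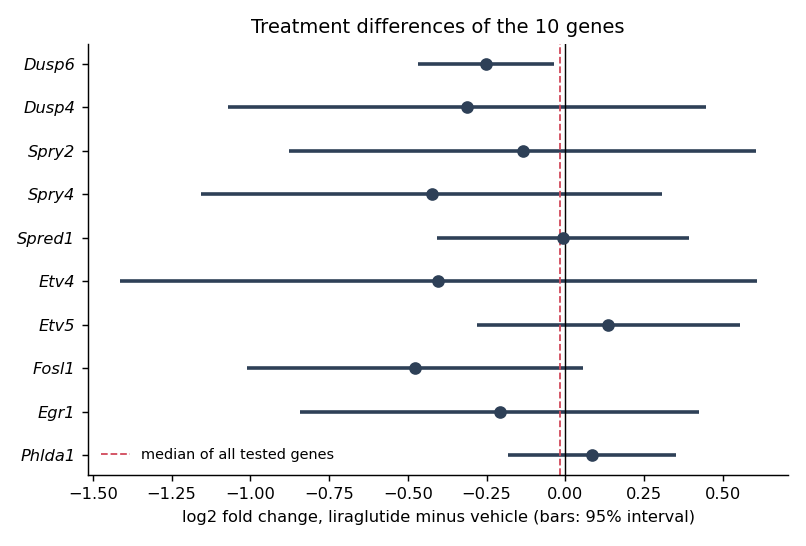
Log2 fold change of liraglutide over vehicle tumors (x axis) for the 10 genes, with points the edgeR estimates, bars their 95% intervals and the dashed line the median of all genes tested, -0.017. The Dusp6 interval lies below 0, the other 9 span it, and the interval of Etv4 is the widest.

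Of the 10 genes, 8 had a negative and 2 a positive log2 fold change, and their median was -0.23 beside -0.017 over all genes tested. Since several of the genes vary together across tumors, these signs are not separate observations. With the mean log2 CPM of the leukocyte markers as a covariate the median was 0.025, and with that of the tumor epithelial markers it was 0.21. The epithelial mean did not rank the tumors as their keratin levels did. The part of leukocytes and tumor epithelium in the values was not tested, and in a bulk tumor fewer cells of a type cannot be told apart from less RNA per cell.

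On GRCm39 the genes lie at chr10:99086564-99103361 (Dusp6, plus strand), chr8:35274442-35287048 (Dusp4, plus), chr14:106128766-106136446 (Spry2, minus), chr18:38719300-38736025 (Spry4, minus), chr2:116951524-117018277 (Spred1, plus), chr11:101660568-101676197 (Etv4, minus), chr16:22200052-22259662 (Etv5, minus), chr19:5497575-5505974 (Fosl1, plus), chr18:34992876-34998049 (Egr1, plus) and chr10:111342147-111344506 (Phlda1, plus), all as protein-coding genes of GENCODE M39.

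Levels were compared between the genes only per kilobase of exon, as means of the 10 tumors. Dusp6 was highest at 64.9 CPM per kilobase, followed by Spred1 at 32.2, Dusp4 at 18.4, Phlda1 at 15.0, Etv4 at 11.9, Spry2 at 11.7, Egr1 at 10.3, Spry4 at 5.86, Etv5 at 4.93 and Fosl1 at 4.38. Only Dusp6 and Spred1 were neighbors in this order whose tumor ranges did not overlap. Spred1 exceeded Dusp4, and Egr1 exceeded Spry4, in 10 of 10 tumors although their ranges overlapped. The other neighbors changed places between tumors, as with Etv4, which exceeded Spry2 in 3 of 10.

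The spread between tumors differed widely among the genes. The highest tumor exceeded the lowest 4.60-fold for Etv4, 4.42-fold for Spry2, 3.91-fold for Spry4, 3.21-fold for Egr1, 3.19-fold for Dusp4 and 2.52-fold for Fosl1, but 1.53-fold for Dusp6 and 1.45-fold for Phlda1. The biological coefficient of variation estimated by edgeR, the spread within groups beyond counting, was 0.503 for Etv4 and 0.386 for Dusp4, above 92.1% and 83.6% of all genes tested. It was 0.149 for Dusp6 and 0.166 for Phlda1, above 6.21% and 16.0%. Dusp6 was thus both the most abundant of the 10 per kilobase and among the steadiest, whereas its family member Dusp4 was among the more variable.

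**Figure D3:**
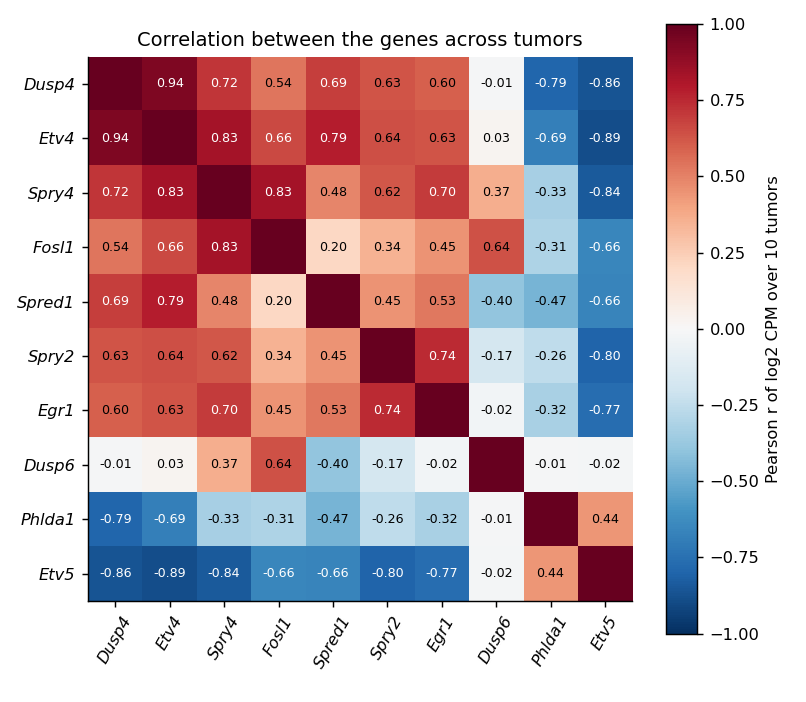
Pearson r of log2 CPM over the 10 tumors for each pair of genes (color scale from -1 to 1, both axes the genes). Dusp4, Etv4, Spry4, Fosl1, Spred1, Spry2 and Egr1 form a block of positive values, Etv5 and Phlda1 are negative to that block, and Dusp6 is near 0 with most genes.

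Across tumors, some of the genes moved together and Etv5 ran opposite to several. Of the 45 pairs, 25 were positive and 20 negative, and 7 (15.6%) had an absolute Pearson r of 0.8 or more, beside 4.21% of all pairs of tested genes. Of these 7 pairs, 3 were positive (Dusp4 with Etv4, Spry4 with Etv4 and Spry4 with Fosl1), and the 4 negative pairs were those of Etv5 with Etv4, Dusp4, Spry4 and Spry2. After Benjamini-Hochberg adjustment over the 45 pairs, 10 Pearson and 5 Spearman correlations had a permutation p under 0.05. The values share libraries and normalization, and n was 10 tumors throughout. Both treatment groups are pooled in these values.

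The closest pair was Dusp4 and Etv4, with r = 0.937 (permutation p = 0.00026, adjusted 0.0117) and rho = 0.939 (permutation p = 0.00024, adjusted 0.0054). It was 0.987 within vehicle and 0.873 within liraglutide tumors, and 0.908 without the 2 tumors farthest from the median of Dusp4. Etv4 and Etv5 had r = -0.885 (permutation p = 0.00086, adjusted 0.0193) and rho = -0.952 (permutation p = 0.00018, adjusted 0.0054), with -0.949 within vehicle tumors, -0.809 within liraglutide tumors and -0.80 without the 2 farthest. Dusp4 and Etv5 had r = -0.864 (permutation p = 0.00135, adjusted 0.0203) and rho = -0.855 (permutation p = 0.00295, adjusted 0.0334), with -0.970 within vehicle tumors, -0.769 within liraglutide tumors and -0.849 without the 2 farthest. Thus Dusp4 and Etv4 were high in the same tumors, and Etv5 was low in them, in both groups.

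Spry4 had its largest r with Etv5, at -0.836 (permutation p = 0.00301, adjusted 0.0271), with rho = -0.842 (permutation p = 0.00398, adjusted 0.0358). It was -0.902 within vehicle tumors, -0.442 within liraglutide tumors and -0.757 without the 2 tumors farthest from the median. With Dusp4 it had r = 0.716 (permutation p = 0.0224, adjusted 0.0775) and rho = 0.721 (permutation p = 0.0241, adjusted 0.0887), with 0.887 within vehicle tumors, 0.372 within liraglutide tumors and 0.513 without the 2 farthest, so this pair missed the adjusted threshold, and the differences between the groups were not tested. With Etv4 it had r = 0.830 (permutation p = 0.00405, adjusted 0.0276) and rho = 0.855 (permutation p = 0.00297, adjusted 0.0334), with 0.871 within vehicle tumors, 0.745 within liraglutide tumors and 0.827 without the 2 farthest. With Fosl1 it had r = 0.830 (permutation p = 0.00429, adjusted 0.0276) and rho = 0.806 (permutation p = 0.00742, adjusted 0.0557), with 0.921 within vehicle tumors, 0.753 within liraglutide tumors and 0.719 without the 2 farthest. Spry2 and Egr1 had r = 0.743 (permutation p = 0.0131, adjusted 0.0536) but rho = 0.539 (permutation p = 0.114, adjusted 0.225) and r = 0.390 without the 2 farthest, so that relation rests on those tumors. Its r was 0.848 within vehicle and 0.00557 within liraglutide tumors, a difference that was not tested.

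Each gene was also set against the mean of the other 9, as a description. The r was 0.950 for Spry4, 0.80 for Etv4, 0.718 for Fosl1, 0.670 for Egr1, 0.639 for Dusp4, 0.567 for Spry2, 0.404 for Spred1, 0.094 for Dusp6, -0.549 for Phlda1 and -0.929 for Etv5. The mean standardized log2 CPM of the 10 genes was highest in vehicle tumors 2, 3 and 1 (0.74, 0.48 and 0.44 SD units) and lowest in vehicle tumors 4 and 5 (-0.49 and -0.45). The liraglutide tumors lay between, at -0.31, 0.31, -0.39, -0.026 and -0.30 for tumors 1 to 5, and no test was made of this mean, whose genes were chosen with results of these data known. Vehicle tumors 2, 3 and 1 also had the largest shares of counts on ribosomal protein genes, 3.59%, 3.37% and 3.32%. The other tumors had 2.98% or less, and this relation was not tested.

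Of 17450 genes outside the list, 304 (1.74%) had r of 0.9 or more with that mean. The 8 highest were Prim1 (0.976), Plxna4os2 (0.969), Klrc1 (0.966), Dusp5 (0.966), Stk10 (0.966), Gm16579 (0.964), 4930503L19Rik (0.961) and Hells (0.961). Dusp5 encodes a further ERK phosphatase, of the nucleus, and was at 114 ± 65.5 CPM in vehicle and 64.3 ± 34.3 CPM in liraglutide tumors (SD, n = 5 each), with a log2 fold change of -0.82 (SE 0.45, adjusted p of 0.577 in edgeR). Its highest value, 192 CPM, was in vehicle tumor 2, and its lowest, 36.1 CPM, in liraglutide tumor 5.

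**Figure D4:**
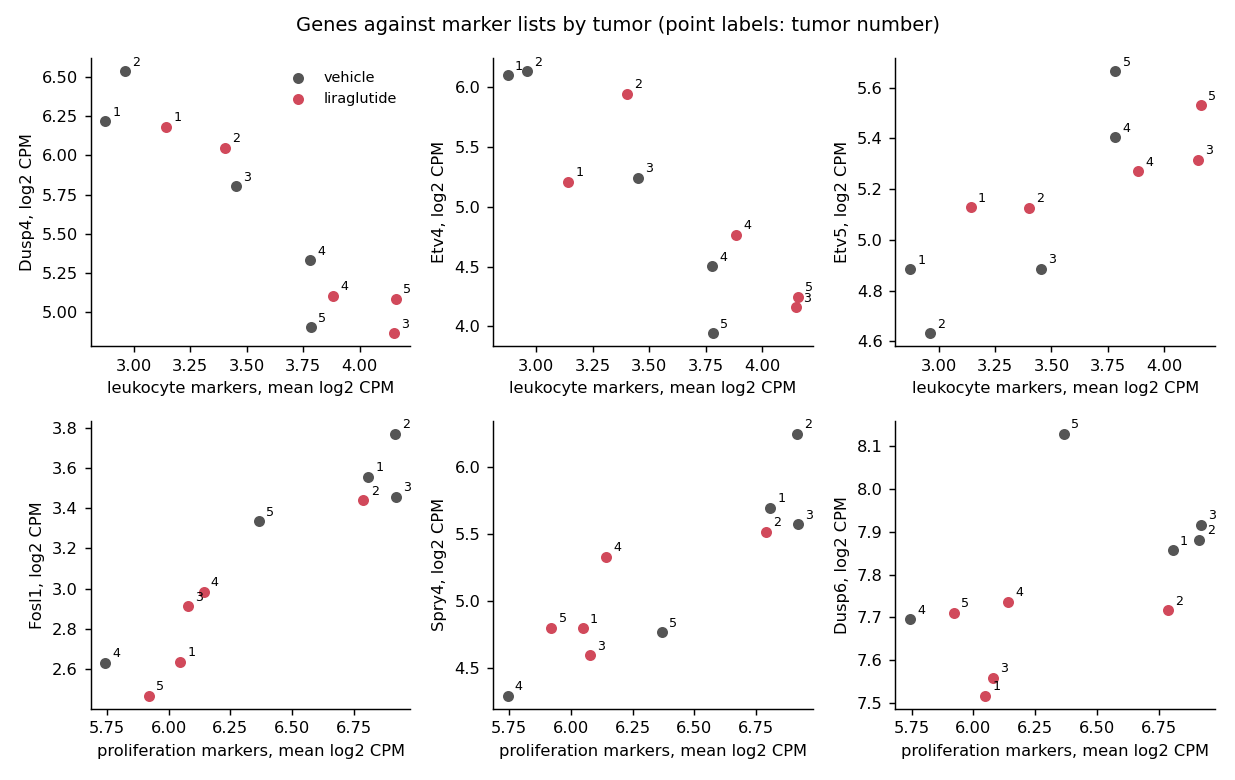
Log2 CPM of 6 of the genes (y axes) against the mean log2 CPM of a marker list (x axes, leukocyte above and proliferation below), each point 1 tumor with its number, vehicle gray and liraglutide red. Dusp4 and Etv4 are lower and Etv5 is higher in tumors with more leukocyte marker RNA, Fosl1 and Spry4 are higher in those with more proliferation marker RNA, and Dusp6 follows proliferation markers loosely.

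Marker lists moved with these genes across tumors. Over the 90 pairs of a gene and a marker list, 8 Pearson correlations had an adjusted permutation p under 0.05 and 2 of them a Spearman adjusted p under 0.05 as well. Dusp4 had r = -0.940 (permutation p = 0.00021, adjusted 0.00945) and rho = -0.927 (permutation p = 0.00041, adjusted 0.0184) with the leukocyte mean, with -0.934 within vehicle tumors, -0.971 within liraglutide tumors and -0.909 without the 2 farthest. Fosl1 had r = 0.941 (permutation p = 0.00021, adjusted 0.00945) and rho = 0.952 (permutation p = 0.00012, adjusted 0.0108) with the proliferation mean, with 0.948 and 0.929 within the groups and 0.937 without the 2 farthest. Tumors with more leukocyte marker RNA thus had less Dusp4, and tumors with more cell cycle RNA had more Fosl1.

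Such values were common among all genes. An absolute r of 0.8 or more was reached by 14.8% of all genes tested with the leukocyte mean, by 20% with the tumor epithelial mean and by 12.1% with the proliferation mean. Of the 10 genes these were 3 (Dusp4, Etv4 and Etv5), 5 (Dusp4, Spry4, Etv4, Etv5 and Fosl1) and 2 (Spry4 and Fosl1). With the tumor epithelial mean, Etv4 had r = -0.877, Dusp4 -0.865, Spry4 -0.852 and Fosl1 -0.814, while Etv5 had r = 0.829, all over 10 tumors, with adjusted Spearman permutation p of 0.0554 to 0.0556 for these 5. That epithelial mean did not rank the tumors as their keratins did. In liraglutide tumor 5 it was 6.75 log2 CPM, below only liraglutide tumor 3 at 6.92, while Krt18 was at its lowest, 1039 CPM. Nkx2-1, also in the list, ranged from 17.7 to 132 CPM. The part of leukocytes, tumor epithelium and cycling cells in the levels of the 10 genes was not tested.

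**Figure D5:**
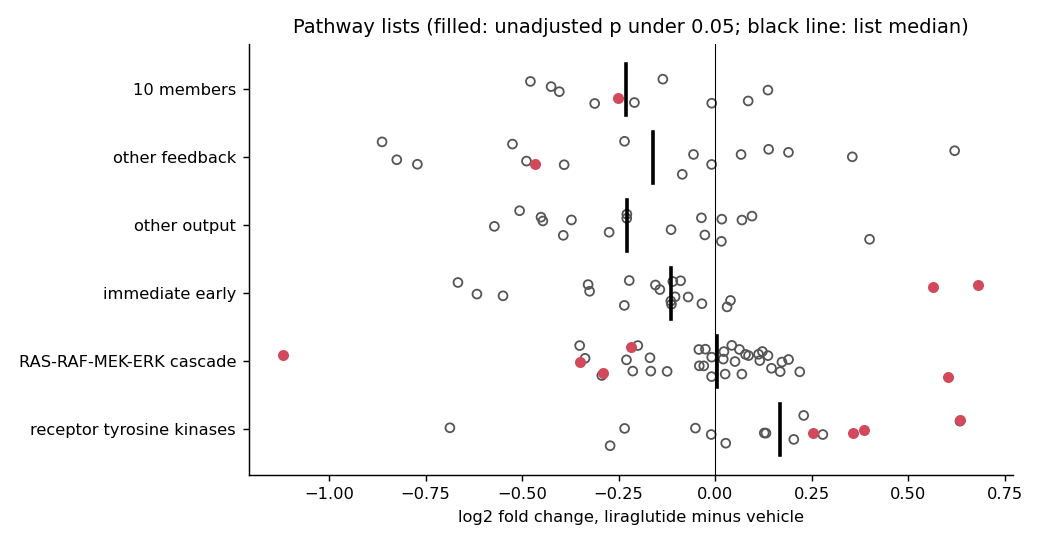
Log2 fold change of liraglutide over vehicle tumors (x axis) for each tested gene of the 10 and of 5 related lists (rows), with filled red points at an unadjusted p under 0.05 and black lines the list medians. The feedback, output and immediate early lists have medians below 0, the cascade list a median of 0.006, and the receptor list one of 0.17.

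The rest of the pathway was read from 5 further lists, in which edgeR called 0 genes. Of 107 tested genes, 12 had an unadjusted p under 0.05, 7 higher and 5 lower, a share of 11.2% that is near the 9.59% of all genes. The count and its split turned on single tumors, as did the count over all genes, with 8 higher and 15 lower without vehicle tumor 4, 6 and 1 without vehicle tumor 2, 5 and 1 without liraglutide tumor 3, and 5 and 2 without liraglutide tumor 5. In the same fits 2704, 1046, 1070 and 919 of all genes had such a p, in place of 1675. With library size alone it was 9 higher and 1 lower. DESeq2 called 0 of the 85 list genes to which it gave an adjusted p, which did not include Nr4a2 and Gab1. Among 16 other feedback genes, of 17 listed, 1 was lower and 0 higher, with a median log2 fold change of -0.16. The lower gene was Errfi1, an inhibitor of the EGF receptor, at 230 ± 63.7 CPM in vehicle and 166 ± 27.3 CPM in liraglutide tumors (log2 fold change -0.47, SE 0.19, adjusted p of 0.503 in edgeR). Spry1, a further Sprouty, was at 14.8 ± 10.6 and 22.8 ± 10.4 CPM (log2 fold change 0.62, SE 0.47, adjusted p of 0.668 in edgeR), and Dusp1, a nuclear MAP kinase phosphatase, at 60.01 ± 17.3 and 42.7 ± 15.6 CPM (log2 fold change -0.49, SE 0.26, adjusted p of 0.561 in edgeR).

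The 17 other output genes had 0 below this p and a median of -0.23. Myc, the growth regulator, was at 137 ± 16.5 and 117 ± 10.002 CPM (log2 fold change -0.23, SE 0.11, adjusted p of 0.529 in edgeR), and the EGF receptor ligand Areg at 101 ± 31.6 and 73.8 ± 14.5 CPM (log2 fold change -0.45, SE 0.22, adjusted p of 0.539 in edgeR). Of 23 listed immediate early genes 20 were tested, 2 were higher and 0 lower, and the median was -0.11. The higher genes were Ccn2, a matricellular protein, at 53.4 ± 15.3 and 85.7 ± 19.9 CPM (log2 fold change 0.68, SE 0.22, adjusted p of 0.482 in edgeR), and the orphan nuclear receptor Nr4a2 (log2 fold change 0.57, SE 0.20, adjusted p of 0.482 in edgeR). Fos, the classical AP-1 immediate early gene, was at 25.5 ± 15.1 and 16.0 ± 8.84 CPM with an adjusted p of 0.633 in edgeR.

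In the cascade itself 38 of 39 listed genes were tested, 1 was higher and 4 were lower, and the median was 0.006. Among the lower genes were the RAS relative Rras2 (log2 fold change -0.29, adjusted p of 0.500 in edgeR), the ERK-activated kinase Rps6ka2 (-1.12, adjusted p of 0.515) and MEK1, Map2k1 (-0.35, adjusted p of 0.519), the last named after its value was seen, and the higher gene was the adaptor Gab1 (0.60, adjusted p of 0.515).

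Among receptor tyrosine kinases 16 of 19 listed were tested, 4 were higher and 0 lower, and the median was 0.17. Ddr1, a collagen receptor, was at 104 ± 4.79 and 135 ± 20.03 CPM (log2 fold change 0.39, SE 0.11, adjusted p of 0.482 in edgeR), and Insr, the insulin receptor, at 149.7 ± 7.86 and 178 ± 10.4 CPM (log2 fold change 0.25, SE 0.081, adjusted p of 0.482 in edgeR). These 2 were the only genes of the 5 lists with tumor ranges that did not overlap, 1.87% of the 107 beside 1.49% of all genes, and both were higher in liraglutide tumors. Erbb2 was at 39.5 ± 11.7 and 61.2 ± 15.4 CPM (log2 fold change 0.63, SE 0.24, adjusted p of 0.494 in edgeR), and the fourth was Pdgfrb, a receptor of fibroblasts and pericytes, also named after its value was seen (log2 fold change 0.36, SE 0.14, adjusted p of 0.503 in edgeR).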

How the data were processed

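RNA of 10 tumors was analyzed. The authors sequenced rRNA-depleted libraries as read pairs, used Bowtie and TopHat for mapping to GRCm39, counted with featureCounts, left out samples at quality assessment and deposited raw counts per gene. The submitters' processing notes name FastQC, mm10 and GRCh38. The annotation release and strand setting are not given in the sources used here. Groups and tumor numbers came from the sample titles.

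Identifiers were matched without version to GENCODE M39 (51731 of 55401, holding 98.31% of counts), which gave symbols and exon lengths. In R 4.3.3, genes kept by filterByExpr of edgeR 4.0.16 (17464) were normalized by TMM and tested with treatment alone by the quasi-likelihood F test, with Benjamini-Hochberg adjustment over all of them. Called genes had an adjusted p under 0.05 with a log2 fold change beyond 0.58 in size. DESeq2 1.42.0, which the study used, limma-voom (limma 3.58.1) and other normalizations, filters and covariates were alternatives. Correlations used log2 CPM (prior count 2) and 100000 two-sided permutations (scipy 1.17.1). Whether each sample is a separate mouse is not labelled beyond the tumor number, so p-values measure the spread between these samples. The edgeR fits with and without the block, DESeq2 and limma-voom were tested on simulated data.

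The genes, lists, markers and alternatives were chosen with earlier results of these data known. Genes named were the 10, from each pathway list up to 3 higher and 3 lower with the smallest unadjusted p, and the 8 most alike to the mean of the 10, and 1 item that the rule also names is not reported here. The depth per tumor, 9927942 to 14480593 counts, limits Fosl1 most.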

Additional observations from a re-analysis of the deposited data

Results flagged for a closer look

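Each gene was looked at in each treatment group, 20 groups of 5 tumors in all, for a tumor that stood apart from the other 4 by Dixon's ratio of the gap to the whole range (critical value 0.71). Chance gives such a tumor in about 1 in 20 groups. Both genes that stood apart did so in liraglutide tumor 2. Spred1 was at 302.3 CPM there, with the next liraglutide tumor at 243.4 CPM and a ratio of 0.783. Egr1 was at 56.97 CPM there, with the next at 42.95 CPM and a ratio of 0.71 after rounding, just past the critical value. The same tumor had the highest summed keratinocyte markers, 227.3 CPM. Within its group it also had the highest summed proliferation markers, 1847 CPM, and the lowest summed leukocyte markers, 336.2 CPM. Its Etv4, Spry4 and Fosl1 were the highest of its group too. Without liraglutide tumor 2 the log2 fold change over vehicle of Spred1 and of Egr1 had an adjusted p above 0.05 in edgeR.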

How the results depend on the processing

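Over 10 other settings and 10 fits without 1 tumor each, 200 log2 fold changes of the 10 genes were computed, of which 171 kept their sign, 29 changed it and 0 had an adjusted p under 0.05. In these fits 0 of the 10 genes were called, Fosl1 having no adjusted p in DESeq2, while over all genes DESeq2 called 13 and edgeR 0. With the leukocyte mean as covariate the median log2 fold change was 0.025, and the log2 fold change was 0.20 for Dusp4, 0.14 for Spry2, 0.052 for Spry4, 0.18 for Spred1, 0.38 for Etv4, -0.049 for Etv5 and -0.037 for Phlda1. With the tumor epithelial mean the median was 0.21, and the values were 0.37 for Dusp4, 0.43 for Spry2, 0.37 for Spry4, 0.22 for Spred1, 0.61 for Etv4 (unadjusted p 0.0102, adjusted p 0.282 in edgeR), -0.16 for Etv5, -0.052 for Phlda1 and 0.20 for Egr1. Fosl1 kept its sign, at -0.27 with the leukocyte and -0.098 with the epithelial mean in place of -0.48, and so did Dusp6, at -0.28 and -0.25. The cause was not tested. Spred1 was at 0.031 with limma-voom, 0.043 with library size alone and 0.015 with at least 10 counts in every tumor, and Spry2 was at 0.034 with limma-voom. Without 1 tumor, the log2 fold change ranged from -0.14 to 0.10 for Spred1, from -0.32 to 0.23 for Spry2, from -0.37 to 0.026 for Egr1, from -0.52 to -0.086 for Dusp4, from -0.61 to -0.14 for Spry4, from -0.76 to -0.16 for Etv4, from 0.031 to 0.31 for Etv5, from -0.64 to -0.37 for Fosl1 and from 0.027 to 0.16 for Phlda1, the median from -0.35 to -0.090, the number of genes without overlap from 0 to 1 and the number at an unadjusted p under 0.05 from 0 to 2. The upper count of genes without overlap came without vehicle tumor 4 and was Dusp6.

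The tumor numbers were not taken as pairs: same-numbered tumors had r of 0.354, 0.565, -0.0753, 0.0681 and 0.389 between their deviations from the group means, 3 of 5 over 0.1, with a mean of 0.26 beside -0.0682 for different numbers, and tumor 2 alone of the vehicle tumors correlated best with its own number. With the number as a replicate block, 0 of the 10 genes were called, Dusp6 had an adjusted p of 0.302 in edgeR, the median was -0.17, Spry2 was at 0.031 and Spred1 at 0.029, and 2585 genes had an unadjusted p under 0.05 in place of 1675, among them 9 higher and 13 lower genes of the 5 pathway lists in place of 7 and 5. Depth limits Fosl1, whose 70 to 168 counts per tumor are the fewest of the 10.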
